A study of Mus musculus with 6 samples.

Results

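Metallothioneins and the genes that move zinc in and out of cells were followed in Hepa1-6 tumors of mice with or without sorafenib (Sora). The 8 genes were taken by their exact symbol from the deposited expression tables: the metallothioneins Mt1, Mt2, and Mt3, the zinc-sensing transcription factor Mtf1, the exporter Slc30a1, and the importers Slc39a4, Slc39a10, and Slc39a14. All 8 were among the 26167 genes of the tables, and all 8 passed the filter on low counts that left 16513 genes for testing. The tumors grew under the skin of female C57BL/6J mice aged 6 to 8 weeks from Hepa1-6 cells, a mouse hepatoma line that the sample labels write Hep1-6. Sora, a drug that blocks several kinases, was given ip at 10 mg/kg in 4 doses, the first on day 9 and the last on day 15. Control mice carried the same tumors without Sora, and what they were injected with is not given in the sources used here. Whole tumor tissue was sequenced, with 3 control tumors (1, 3, and 4 in the labels) and 3 Sora-treated tumors (2, 3, and 4). The tumors hold host cells besides the hepatoma cells, so a higher level in each cell and more cells of a kind cannot be told apart.

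Metallothioneins are small proteins rich in cysteine that bind zinc and copper and buffer their free levels in the cell. In the liver they are induced by metals, glucocorticoids, inflammation, and oxidative stress, and they have been linked to sorafenib resistance in hepatoma cells. Zinc in the cytosol is sensed by Mtf1, which binds metal response elements in DNA. Proteins of the ZnT family (Slc30 genes) lower cytosolic zinc by moving it out of the cell or into vesicles. Proteins of the ZIP family (Slc39 genes) move zinc the other way.

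Mt1 and Mt2 lie side by side on chromosome 8, after Mt4 and Mt3, and are transcribed in the same direction. The 250 bases before the RefSeq start of each are shown because both genes rose, and capitals mark matches to the core of the metal response element. The search used TGCACNC and TGCGCNC on both strands and counted overlapping matches. The sequences are those of RefSeq on GRCm38.p6, plus strand, at chr8:94178839-94179088 for Mt1 and chr8:94172368-94172617 for Mt2.
Mt1: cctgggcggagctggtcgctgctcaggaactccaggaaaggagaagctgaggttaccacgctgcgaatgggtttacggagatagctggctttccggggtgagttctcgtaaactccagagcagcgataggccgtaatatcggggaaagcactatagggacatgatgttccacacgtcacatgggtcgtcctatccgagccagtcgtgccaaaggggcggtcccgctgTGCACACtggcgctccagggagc
Mt2: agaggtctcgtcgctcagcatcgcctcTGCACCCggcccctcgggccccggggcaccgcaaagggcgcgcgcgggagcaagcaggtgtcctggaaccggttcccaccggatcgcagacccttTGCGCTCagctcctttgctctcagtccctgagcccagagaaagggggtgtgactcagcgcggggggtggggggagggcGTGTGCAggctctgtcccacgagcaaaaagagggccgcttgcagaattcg

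In the 300-base windows, which also hold the first 50 bases after the start, Mt1 had 3 matches and Mt2 had 4. Of all 32851 windows of this length, 25.7% held at least 1 match, 7.11% at least 2, 1.97% at least 3, and 0.517% at least 4. In the 250 bases shown, before the start, Mt1 had 1 match and Mt2 had 3, where 21.4% of all windows held at least 1 and 1.26% at least 3. In its whole 300-base window Slc30a1 had 2 matches, 1 of them before the start, and Mt3 had 1, which lay after the start, whereas the windows of Mtf1 and Slc39a10 had none, and no window of Slc39a4 or Slc39a14 was used. GENCODE M21 places starts of Mt1 transcripts at 94179082, 94179211, and 94179241 and of Mt2 transcripts at 94172664 and 94172860 on GRCm38, so the starts of the sources differ. The Mt1 matches at positions 3 and 21 from the RefSeq start lie before the starts at 94179211 and 94179241. The Mt2 match at position 5 lies before both GENCODE starts of Mt2. Bases further than 50 after the RefSeq start were not searched, so the count before a start depends on the start used. A match is a stretch of letters and not a measured binding site.

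Both abundant metallothioneins were up-regulated in Sora-treated tumors, Mt1 by 1.54-fold and Mt2 by 1.76-fold, and none of the other 6 genes passed the test. Levels between tumors are given as CPM, the counts of a gene relative to the total count of its tumor after TMM scaling, and tests are edgeR's quasi-likelihood test with Benjamini-Hochberg adjustment over all genes tested. By an adjusted p under 0.05, 2 of the 8 genes were called, both higher, against 3.29% of all genes tested in either direction and 1.94% higher in Sora-treated tumors. The 8 genes were chosen with earlier results of these tumors known, so the share is a description.

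Mt1 was at 81.1, 104, and 78.8 CPM in control tumors 1, 3, and 4. With Sora it was at 137, 124, and 146 CPM in tumors 2, 3, and 4. Every Sora-treated tumor lay above every control tumor, and the highest control tumor was number 3. The mean rose from 87.9 ± 13.8 to 136 ± 11.1 CPM (SD, n = 3), a log2 fold change of 0.63 (standard error 0.11, 95% interval 0.38 to 0.87, adjusted p = 0.018, edgeR). Each tumor had 2602 to 4828 reads of Mt1, for which counting error is at most 1.96%, well under the 15.7% coefficient of variation between the control tumors.

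Mt2 was at 57.0, 79.9, and 64.6 CPM in control tumors 1, 3, and 4. With Sora it was at 114, 107, and 133 CPM in tumors 2, 3, and 4. The groups did not overlap here either, and Sora-treated tumor 4 was again the highest. The mean rose from 67.2 ± 11.7 to 118 ± 13.3 CPM (SD, n = 3), a log2 fold change of 0.81 (standard error 0.12, 95% interval 0.54 to 1.08, adjusted p = 0.012, edgeR). Among all genes tested, Mt2 had the 54th smallest p and Mt1 the 129th.

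Both calls were lost when certain single tumors were left out. The call of Mt1 was lost without control tumor 1 (adjusted p = 0.057), control tumor 4 (0.066), Sora-treated tumor 2 (0.060), or Sora-treated tumor 4 (0.10), in edgeR's test. That of Mt2 was lost without Sora-treated tumor 4 (adjusted p = 0.070, edgeR). With the tumor number as a block in edgeR, Mt1 was not called (adjusted p = 0.12) and Mt2 was (0.044). By limma on log2(FPKM + 1) of all genes neither was called (adjusted p 0.18 and 0.17), nor was any other gene. The counts of Sora-treated tumor 4 were recovered from its FPKM, so DESeq2 was also run on the 5 deposited count columns. These are the same 5 tumors as in edgeR's fit without Sora-treated tumor 4, so the 2 runs differ in tool and filter. DESeq2 called Mt1 and Mt2 there, with adjusted p of 0.0018 and 7.0e-05. It called 491 genes in all, where edgeR's fit of those tumors called 5. Log2 fold changes stayed between 0.55 and 0.76 for Mt1 and between 0.71 and 0.96 for Mt2 in every alternative run.

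**Figure D1:**
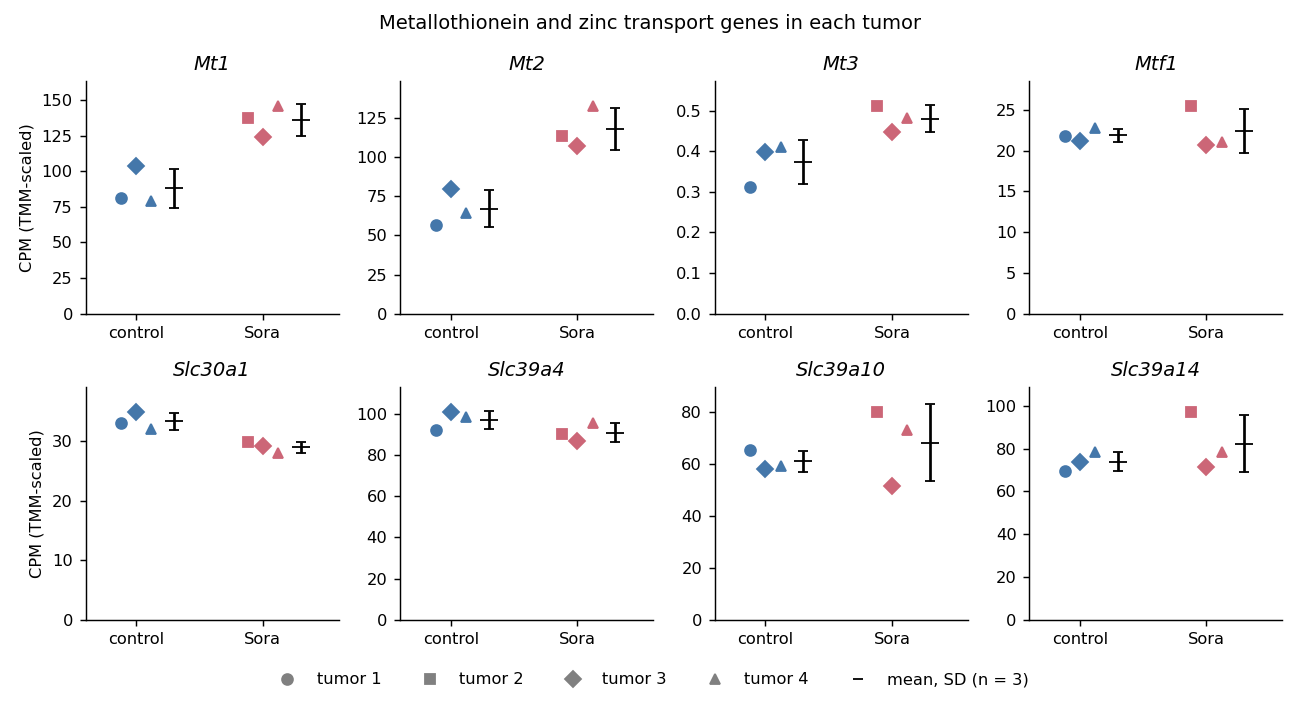
CPM after TMM scaling (y axis, from 0) of the 8 genes in the 3 control and 3 Sora-treated tumors, with the tumor number as the marker shape and the mean ± SD (n = 3) in black. Mt1 and Mt2 lie higher in each Sora-treated tumor than in any control tumor, whereas Mtf1, Slc39a4, Slc39a10, and Slc39a14 overlap between the groups.

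Mt1 and Mt2 together held 138, 184, and 143 CPM in control tumors 1, 3, and 4 and 251, 231, and 279 CPM in Sora-treated tumors 2, 3, and 4. The tumors of the Sora-treated group had the same order in both genes, with tumor 3 lowest and tumor 4 highest. Reads of Mt2 per read of Mt1 numbered 0.703, 0.770, and 0.820 in the control group (tumors 1, 3, and 4) and 0.828, 0.866, and 0.911 after Sora (tumors 2, 3, and 4). The ratio averaged 0.764 ± 0.059 and 0.868 ± 0.042 (SD, n = 3), and the groups did not overlap, although the highest control tumor and the lowest Sora-treated tumor were close (two-sided exact permutation p = 0.1, the lowest value possible with 3 tumors against 3). Mt1 and Mt2 are close relatives, and reads that match both could have been assigned to either.

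**Figure D2:**
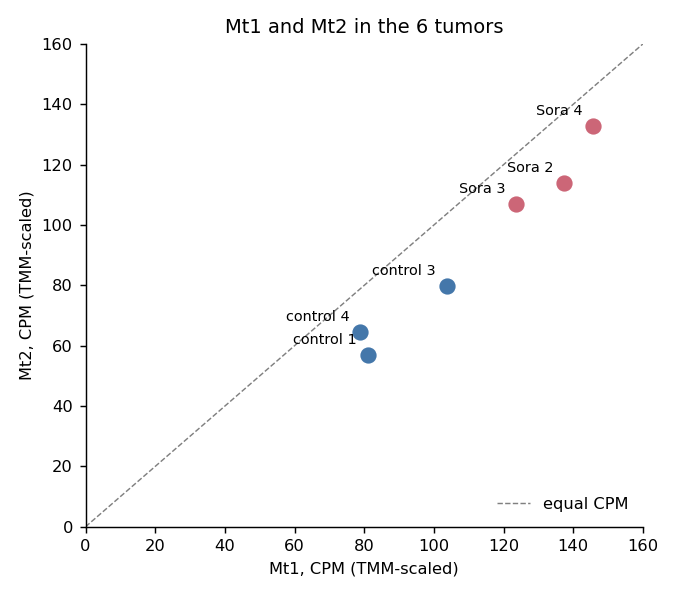
CPM of Mt2 (y axis) against CPM of Mt1 (x axis), 1 point per tumor, with a dashed line where both would be equal. The Sora-treated tumors lie up and to the right of the control tumors, and all 6 tumors lie below the line, with Sora-treated tumor 4 (146 and 133 CPM) nearest to the upper corner.

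Mt3, the metallothionein known mainly from the brain, was barely detected. It had 10 to 16 reads per tumor, or 0.312, 0.399, and 0.411 CPM in control tumors 1, 3, and 4 and 0.512, 0.447, and 0.483 CPM in Sora-treated tumors 2, 3, and 4. The groups did not overlap, as was so for 22.2% of all genes tested, but counting error alone is 25% to 31.6% of such counts. Its log2 fold change was 0.35 with a 95% interval of -0.56 to 1.27 (adjusted p = 0.73, edgeR), so a change of the size of Mt1 or Mt2 was not detectable at this depth. Mt4, the metallothionein of squamous epithelium, had 13 reads in control tumor 4 and 0 to 2 in the others and was not tested. Its 0 reads in control tumor 1 allow up to 0.0935 CPM, by counting error only.

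Mtf1 overlapped between the groups, at 21.8, 21.1, and 22.7 CPM in control tumors 1, 3, and 4 and 25.5, 20.7, and 21.0 CPM in tumors 2, 3, and 4 with Sora. Sora-treated tumor 2 was the highest of the 6, and the other Sora-treated tumors were just below the lowest control tumor. Its log2 fold change was 0.03, with a 95% interval of -0.19 to 0.26 (adjusted p = 0.91, edgeR). The interval does not reach the log2 fold change of Mt1 (0.63).

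Slc30a1, or ZnT1, is the zinc exporter of the plasma membrane and a known target of Mtf1. It was at 33.0, 34.9, and 32.1 CPM in control tumors 1, 3, and 4 and at 29.8, 29.2, and 28.0 CPM in Sora-treated tumors 2, 3, and 4. The Sora-treated tumors all lay below the control tumors, the opposite of the order in Mt1 and Mt2. The log2 fold change was -0.20 (standard error 0.08, 95% interval -0.38 to -0.03), which did not pass the adjustment (adjusted p = 0.22, edgeR). Its unadjusted p was 0.029, the 2177th smallest of the 16513 genes tested, and 17.2% of all genes tested had an unadjusted p under 0.05.

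Among the importers, Slc39a4, or ZIP4, which takes up dietary zinc in the intestine, overlapped between the groups. It was at 92.0, 101, and 98.3 CPM in control tumors 1, 3, and 4 and 90.3, 86.6, and 95.7 CPM in Sora-treated tumors 2, 3, and 4 (log2 fold change -0.09, 95% interval -0.26 to 0.07, adjusted p = 0.57, edgeR). Slc39a10, or ZIP10, which Mtf1 is known to repress when zinc is high, was at 65.4, 58.1, and 59.0 CPM in control tumors 1, 3, and 4 and at 79.8, 51.5, and 73.1 CPM in Sora-treated tumors 2, 3, and 4. Sora-treated tumor 3 was the lowest of the 6 tumors, whereas the other Sora-treated tumors were the highest. With all tumors the log2 fold change was 0.16 (95% interval -0.14 to 0.46, adjusted p = 0.60, edgeR). Without Sora-treated tumor 3 it was 0.33 (adjusted p = 0.047, edgeR), in a fit that called 7.03% of all genes. Without Sora-treated tumor 2 it was 0.04 (adjusted p = 0.96, edgeR). Slc39a14, or ZIP14, which imports zinc, manganese, and iron in the liver and is induced by interleukin-6, was at 69.8, 73.6, and 78.6 CPM in control tumors 1, 3, and 4. In Sora-treated tumors 2, 3, and 4 it was at 97.1, 71.5, and 78.5 CPM, so only tumor 2 stood above the control tumors (log2 fold change 0.15, 95% interval -0.08 to 0.39, adjusted p = 0.52, edgeR). Without Sora-treated tumor 2 the log2 fold change of Slc39a14 was 0.02 (adjusted p = 0.97, edgeR).

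Levels of different genes were compared as FPKM, which divide by gene length. In control tumors the order was Mt2 (121 ± 17.9 FPKM, SD, n = 3), Mt1 (69.9 ± 9.29), Slc39a4 (35.3 ± 0.917), Slc39a14 (7.26 ± 0.42), Slc30a1 (6.23 ± 0.175), Slc39a10 (3.82 ± 0.337), Mtf1 (2.88 ± 0.157), and Mt3 (0.696 ± 0.091), and no neighbors in this order overlapped. The order was the same in Sora-treated tumors, from Mt2 (211 ± 19.1 FPKM) and Mt1 (99.3 to 112 FPKM) down to Mt3 (0.889 ± 0.061), but Slc39a10 (3.25 to 5.03 FPKM) and Mtf1 (2.67 to 3.36 FPKM) overlapped there. The place of Mt1 below Mt2 depends on the length used. The deposited FPKM imply a length of 1258 bases for Mt1 and 556 for Mt2, whereas in GENCODE M21 the 3-exon transcript of Mt1 (Mt1-201) has 549 bases and those of Mt2 have 511 (Mt2-201) and 388 (Mt2-202). Per kilobase of Mt1-201 and Mt2-201, Mt1 stood above Mt2 in each of the 6 tumors, with 160 ± 25.1 against 131 ± 22.9 CPM per kilobase in control tumors and 247 ± 20.3 against 231 ± 26.1 in Sora-treated tumors (SD, n = 3). With the length of Mt2-202 instead, Mt2 came to 173 ± 30.1 and 304 ± 34.3 CPM per kilobase (SD, n = 3) and stood above Mt1 in 5 of 6 tumors, so the order of the pair per length is not settled by these tables.

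**Figure D3:**
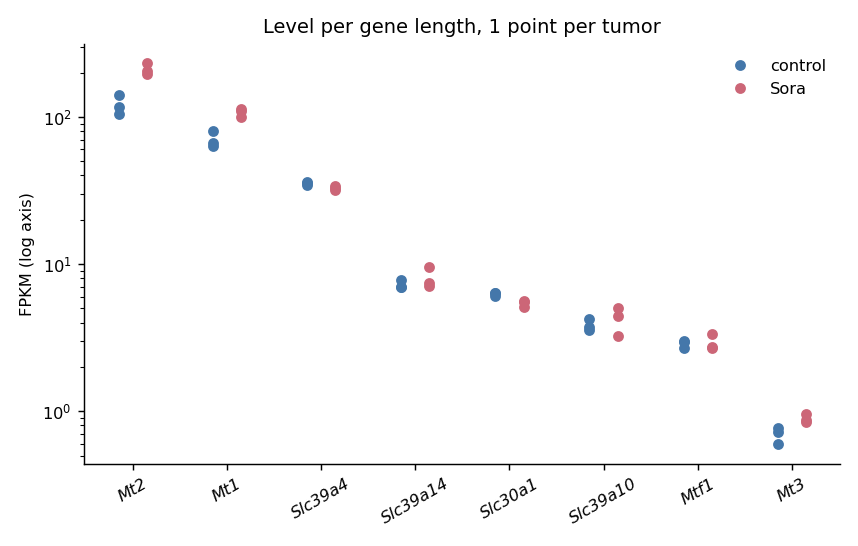
Deposited FPKM (log axis) of the 8 genes in control and Sora-treated tumors, 1 point per tumor, ordered by the mean of the control tumors. Levels span from 121 FPKM for Mt2 to 0.696 FPKM for Mt3 in control tumors, and Slc39a10 and Mtf1 overlap in Sora-treated tumors.

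The rest of zinc transport was described from the ZnT and ZIP families. Of their 22 genes in the tables, 21 were tested in edgeR and limma voom and 22 in DESeq2, and none was called by any of these tools. At an unadjusted p under 0.05 there were 3 of 21 in edgeR, no more than the 17.2% of all genes tested would give. There were 3 of 22 in DESeq2 and 4 of 21 in limma voom, for which the share over all genes was not counted. In edgeR 10 were higher and 11 lower, with a median log2 fold change of -0.04, and all genes tested had a median of -0.00037. Summed over the families, the transporters held 1119 to 1156 CPM in control tumors and 1125 to 1209 CPM in Sora-treated tumors, which overlapped.

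The groups did not overlap for 5 of the 21 genes, a share near the 22.2% of all genes tested, so the following values are a description. Besides Slc30a1, the ZnT genes with groups that did not overlap were Slc30a4, which loads zinc into vesicles (83.5 ± 1.15 and 102 ± 16.5 CPM, log2 fold change 0.29, adjusted p = 0.18), and Slc30a7 of the Golgi (72.1 ± 3.44 and 65.1 ± 1.35 CPM, -0.15, 0.32). Among ZIP genes they were Slc39a13 (30.8 ± 0.866 and 37.0 ± 2.83 CPM, 0.27, 0.12) and Slc39a7, which releases zinc from the endoplasmic reticulum (159 ± 8.70 and 179 ± 11.7 CPM, 0.17, 0.29, edgeR). The highest transporters per length were Slc39a1 of the plasma membrane (70.0 ± 3.17 and 72.2 ± 0.896 FPKM in control and Sora-treated tumors) and Slc39a7 (66.6 ± 3.88 and 74.5 ± 4.16 FPKM). Slc39a8, a manganese and zinc importer, was at 37.6, 43.4, and 47.0 CPM in control tumors 1, 3, and 4 and at 29.8, 48.6, and 27.8 CPM in Sora-treated tumors 2, 3, and 4. Sora-treated tumor 3 was the highest of all, and the other Sora-treated tumors were the lowest. Without Sora-treated tumor 3, Slc39a8 (log2 fold change -0.57, adjusted p = 0.014, edgeR), Slc30a4 (0.39, 0.023), and Slc39a10 were called, 3 of the 21 genes where that fit called 7.03% of all genes (1145 of 16295), and with all 6 tumors none of the 3 was.

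The remaining tested family genes had log2 fold changes from -0.19 to 0.15 at a mean of over 1 CPM, apart from Slc39a2. These were Slc30a5, Slc30a6, Slc30a9, Slc39a1, Slc39a3, Slc39a6, Slc39a9, and Slc39a11, with adjusted p from 0.36 to 0.88 (edgeR). Slc30a2, Slc30a3, and Slc39a12 had means under 1 CPM, and Slc39a2 had 20 to 50 reads per tumor. Their 95% intervals were wide, from -2.02 to 0.40 for Slc30a2 and from -1.37 to 1.05 for Slc39a12. Slc39a5 had at most 2 reads in a tumor and was not tested in edgeR.

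**Figure D4:**
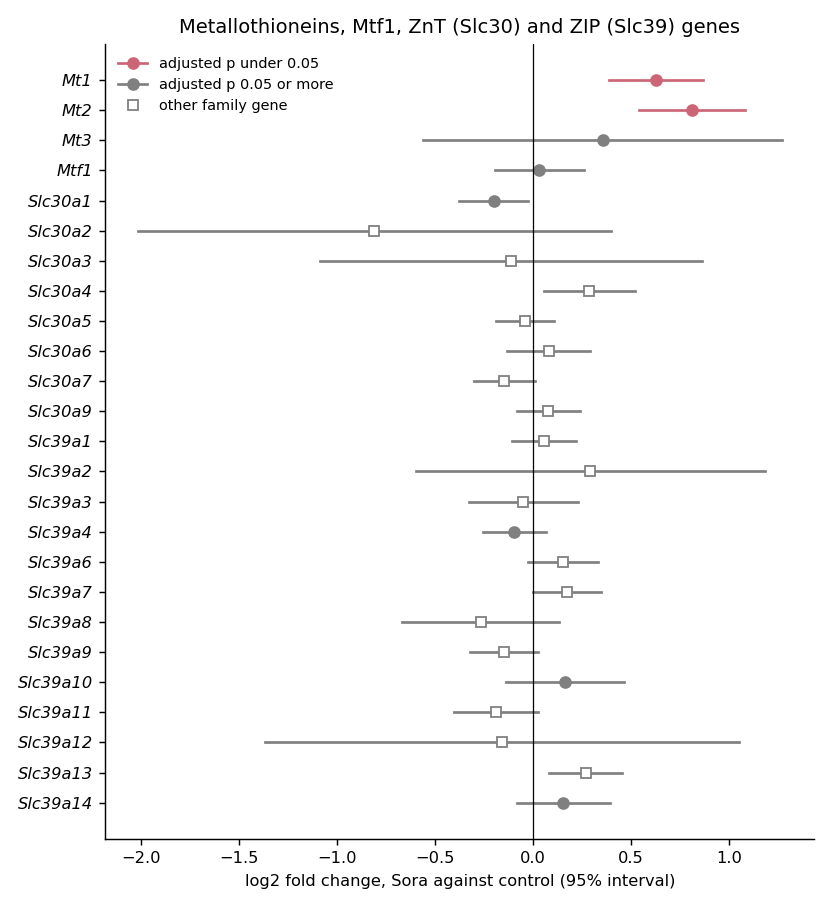
Log2 fold change of Sora-treated against control tumors with its 95% interval (x axis, edgeR, n = 3 per group) for the tested metallothioneins, Mtf1, and the ZnT and ZIP genes. Filled circles are the 8 genes of the opening, open squares other family genes, and red marks an adjusted p under 0.05, which Mt1 (0.63) and Mt2 (0.81) reached.

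A list of 10 genes linked to Mtf1 in earlier work held 6 higher and 4 lower genes. It includes Slc39a10, which Mtf1 is known to repress, so a shared direction was not to be expected. The activity of Mtf1 was not tested. Of the 10, 6 had an unadjusted p under 0.05 (edgeR), where 17.2% of all genes tested did. In the list 3 were called higher (Mt1, Mt2, and Ndrg1) and 1 lower (Slc40a1), with a median log2 fold change of 0.08. Of all genes tested, 3.29% were called in either direction and 1.94% higher. Mt1 and Mt2 are 2 of the calls in the list. Ndrg1, which is also known as a hypoxia-induced gene, had 595 ± 122 CPM in control and 976 ± 136 CPM in Sora-treated tumors (SD, n = 3) and rose by 0.71 on the log2 scale (adjusted p = 0.029, edgeR). Slc40a1, the iron exporter ferroportin, fell by 0.46 on the log2 scale (adjusted p = 0.047, edgeR). Among 10 genes of copper handling, which metallothioneins also buffer, none was called by edgeR (1 at an unadjusted p under 0.05), and the smallest p was that of the copper pump Atp7b (log2 fold change 1.15, adjusted p = 0.21, edgeR). Of 10 genes that glucocorticoids induce, 2 were called higher and 0 lower, against 3.29% of all genes tested in either direction and 1.94% higher. They were the phosphatase gene Dusp1 (log2 fold change 0.74, adjusted p = 0.013, edgeR) and Sgk1, a kinase gene (0.41, 0.033). Of the 10 genes 7 were higher and 3 lower, and 6 had an unadjusted p under 0.05, where 17.2% of all genes tested did. The lower genes were Pdk4 (log2 fold change -0.58, adjusted p = 0.053, edgeR), Tsc22d3 (-0.23, 0.19), and Klf9 (-0.13, 0.47). Without Sora-treated tumor 4 the adjusted p of Ndrg1, Slc40a1, Dusp1, and Sgk1 were 0.14, 0.21, 0.085, and 0.15 (edgeR), and without Sora-treated tumor 2 only Dusp1 of these 4 (0.029) was called.

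The genes whose pattern over the 6 tumors was most like that of Mt1 were found by the root mean square difference of log2(CPM + 1), with each gene centered on its own mean, over 14113 genes with a mean of at least 1 CPM. They were Tnfrsf11b, the decoy receptor osteoprotegerin (difference 0.0275), the AP-1 gene Junb (0.0288), Pxdc1 (0.0575), the RNA helicase gene Dhx34 (0.0697), and Csrnp1 (0.0785). Junb was at 214, 285, and 216 CPM in control tumors 1, 3, and 4 and at 366, 337, and 408 CPM in Sora-treated tumors 2, 3, and 4, with control tumor 3 and Sora-treated tumor 4 highest in their groups as for Mt1. Those nearest to Mt2 were Ndrg1 (0.0872), Cited2 (0.0918), Igfbp3 (0.0932), Junb (0.0986), and Spin4 (0.101). Mt2 itself came 45th for Mt1, and Mt1 came 13th for Mt2, at a difference of 0.118. These genes were found by their likeness to Mt1 or Mt2, so their own rise is no separate result.

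Markers of the cell types that such tumors can hold were set beside these values, by edgeR's calls. The hepatoma markers Afp and Alb were present in all tumors (655 to 1000.5 and 1994 to 3510.5 CPM), and of 10 hepatoma markers 2 were called higher (Hnf4a and Apoa1) and 2 lower (Alb and Ttr), against 3.29% of all genes tested, with summed levels that overlapped. Summed levels did not overlap for neutrophils (66.8 to 77.7 CPM in control and 98.9 to 153 CPM in Sora-treated tumors, 1 of 5 tested markers called, S100a9 higher), for macrophages (1721 to 2083 and 1450.3 to 1699 CPM, 0 of 7, the smallest p being that of Csf1r), and for T cells (227 to 251 and 183 to 196 CPM, 0 of 7, Lck). Nor did they for fibroblasts (8076 to 8259 and 5550.3 to 6964 CPM, 1 of 7, Postn lower) and red blood cells (47.0 to 129 and 32.9 to 44.1 CPM, 1 of 5, Hba-a1 lower). Most of the fibroblast sum came from the collagens Col1a1, Col1a2, and Col3a1 (log2 fold changes -0.42, -0.47, and -0.42, not called). The fibroblast markers Dcn (0.03), Pdgfra (-0.03), and Lum (-0.22) overlapped between the groups. Fewer fibroblasts and less collagen were not told apart. Summed levels overlapped for endothelial cells (0 of 6 called, smallest p Pecam1), skeletal muscle (0 of 6, Acta1), keratinocytes (0 of 7, Trp63), and adipocytes (0 of 5 tested, Cfd). Higher with Sora were all 5 tested adipocyte markers (median log2 fold change 0.67), all 7 of keratinocytes (0.48), and all 6 of skeletal muscle (0.17). Of the endothelial markers 3 were higher and 3 lower. Of the adipocyte markers 3 had an unadjusted p under 0.05 (edgeR), where 17.2% of all genes tested did. No marker was at 0 reads in any tumor. With each of the 6 tumors left out in turn, Ttr was called in 6 fits, Postn in 5, Hnf4a in 4, Alb in 2, and Apoa1, S100a9, and Hba-a1 in 1 each (edgeR). By DESeq2 on the 5 deposited count columns the adjusted p was 0.20 for S100a9 and 0.17 for Hba-a1. S100a9 was at 41.8 CPM in Sora-treated tumor 2 and at 16.3 and 25.2 CPM in tumors 3 and 4. The marker sum of the neutrophils was higher in each Sora-treated tumor than in any control tumor, as Mt1 and Mt2 were. All 5 tested neutrophil markers were higher (median log2 fold change 0.65). The part of any of these cell types in the levels of Mt1 and Mt2 was not tested.

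**Figure D5:**
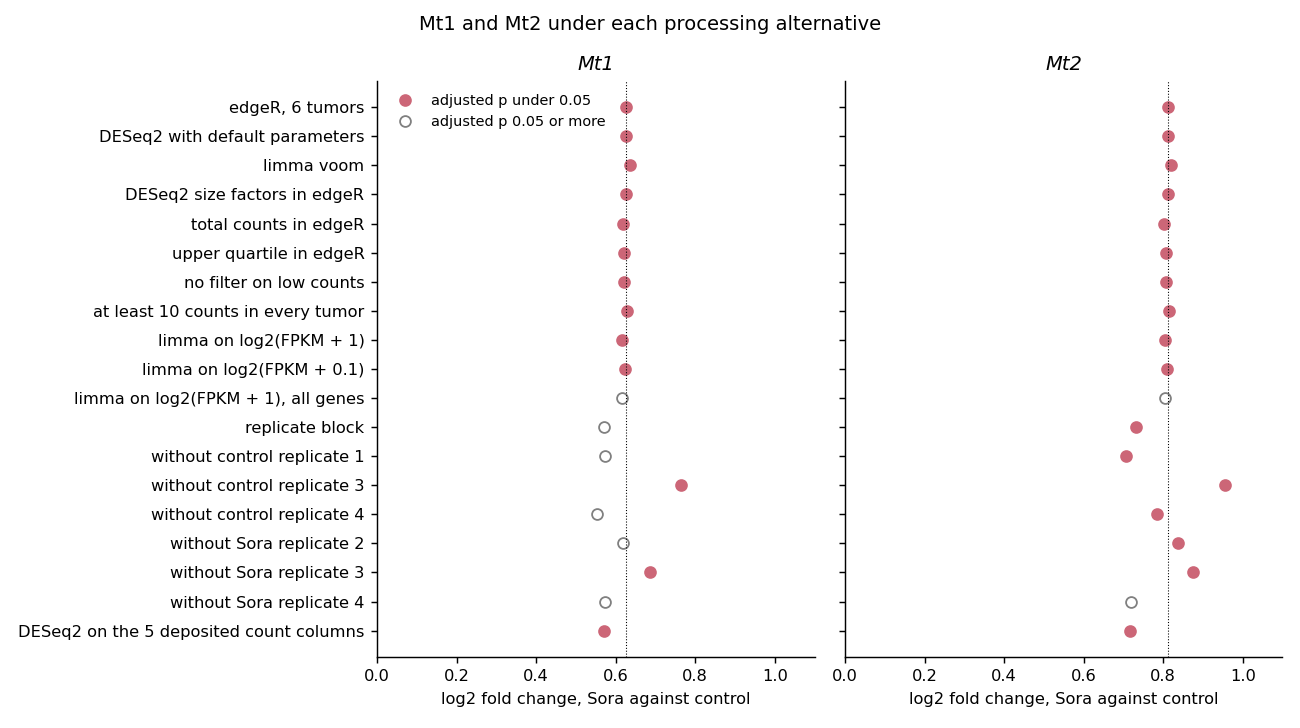
Log2 fold change (x axis) of Mt1 and Mt2 in edgeR's test of all 6 tumors (top row and dotted line) and in 18 alternatives, with filled points for an adjusted p under 0.05. The direction is the same in all, Mt1 is not called in 6 alternatives, and Mt2 is not called in 2.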

How the data were processed

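The authors deposited counts, the whole numbers of reads per gene symbol, and FPKM, which in the values are those counts divided by 1 length per gene and by the total count. The submitters' processing notes name fastp, HISAT2, HTSeq, and GRCm39, whereas the paper's methods name Bowtie2 and GRCm38. Annotation, filters, and use of strand are not given in the sources used here, so overlapping genes and close relatives are uncertain (GENCODE M21 lists an antisense transcript over Mt2). The count table used here holds 5 tumors. For Sora-treated tumor 4, counts were recovered by multiplying FPKM by the gene lengths found in the other tumors, and 100% came within 0.001 of a whole number. In that tumor 342 genes with 512 reads in all could not be resolved and were set to 0. Treating each of the other tumors as unknown returned all of the 20969 to 21229 counts that could be reached.

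Total counts were 31073830 to 36205814 per tumor. Genes that reached 10 counts in 3 or more tumors were tested with edgeR 4.0.16 in R 4.3.3 (glmQLFit, glmQLFTest, TMM), and scripts were tested on simulated data. Alternatives used DESeq2 1.42.0, limma 3.58.1 (voom, or log2(FPKM + 1) and log2(FPKM + 0.1) of genes that reached 1 FPKM in 3 or more tumors), other scaling, other filters, a replicate block, and leaving out each tumor. DESeq2 on the 5 deposited columns was added after seeing the data. P-values measure the spread between these tumors, whose mice the labels do not name.

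The members and lists were chosen with earlier results of these data known. Named were the 8 genes, the ZnT, ZIP, and metallothionein genes, in each other list the genes with an adjusted p under 0.05 or else the smallest p, and the 5 patterns nearest to Mt1 and to Mt2. The lists were of genes linked to Mtf1, copper handling, genes induced by glucocorticoids, and markers of 10 cell types.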

Additional observations from a re-analysis of the deposited data

How the results depend on the processing

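Of the 8 genes, 2 were called in edgeR's test of all tumors, 0 with limma on log2(FPKM + 1) of all genes (adjusted p 0.18 for Mt1 and 0.17 for Mt2), 1 with the replicate block (Mt2, adjusted p = 0.044, against 0.12 for Mt1), and 0 to 3 with 1 tumor left out. Over all genes, 543 were called in the main test, 1195 by DESeq2, 1147 with no filter on low counts, 286 on log2(FPKM + 1), 252 on log2(FPKM + 0.1), 0 on log2(FPKM + 1) of all genes (limma, 3143 of 26167 at an unadjusted p under 0.05), 125 with the replicate block, and 5 (without Sora-treated tumor 4) to 1145 (without Sora-treated tumor 3) with 1 tumor left out. On the same 5 tumors as the fit that called 5 genes, DESeq2 called 491. None of the ZnT and ZIP genes was called in any alternative except leaving out Sora-treated tumor 3, so that the range with 1 tumor left out is 0 to 3. The direction turned for Mtf1 with the replicate block (-0.071) and with 1 tumor left out (-0.069 to 0.084) and for Slc39a14 with the replicate block (-0.021), none of them called. Tumors with the same number did not deviate together (r = -0.065 for number 3 and for number 4, over genes), so the numbers were not taken as pairs. The causes of these differences were not tested. Mt3 lay under the limit of 1 FPKM and has no value on those scales except over all genes. Depth limits Mt3, Mt4, and the transporters under 1 CPM.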
